A study of Mus musculus with 12 samples.

Results

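Glycolysis and the pentose phosphate pathway were described here by 33 genes, chosen for their place in the pathways, though with earlier results of these data known. They cover glucose and lactate transport, the hexokinases, the steps from hexose phosphate to pyruvate, the enzymes that decide the fate of pyruvate, and both branches of the pentose phosphate pathway. Of the 33, 29 were measured by a probe set with 1 gene symbol, out of 19937 genes on the array. The other 4 were not analysed here. Gpi1, Eno1 and G6pdx had no probe set named for them alone, and Gapdh had 11 probe sets that all carried several symbols. Of the 29 measured genes, 28 had a mean over all arrays above the background, a level of 5.21 log2 under which 95% of 1027 genes for olfactory receptors lie. The exception was Hk3.

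Total RNA of spleen cells from C57Bl/6 x FVB mice was hybridised to 12 Affymetrix mouse gene arrays, and the labels name no transgene or deletion. The 4 groups of the labels hold 3 arrays each. Resting B cells were CD43-negative cells of the spleen on day 0, and activated B cells were harvested on day 4 of culture with aCD40 and IL4. Resting T cells were B220-negative spleen cells on day 0, and activated T cells were taken on day 4 of culture with aCD3, aCD28 and IL2. Resting and activated cells therefore differed in culture as well as in stimulation, and no unstimulated culture was among the arrays. In the study's methods the negative selection of resting B cells also used antibodies to CD5, CD138, TER-119, CD11b and Gr-1. Those to CD11b and Gr-1 bind myeloid cells, and Cd5 is among the T cell markers used below. Since the T cells were gated only by the absence of B220, other cells without it could be in that fraction. Whether the arrays of 1 group stand for separate mice or cultures is not given in the sources used here, and p-values then measure only the spread between these arrays.

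Glycolysis splits glucose into pyruvate with a small gain of ATP, and the pentose phosphate pathway turns glucose phosphate into NADPH and ribose phosphate for the synthesis of lipids and nucleotides. Resting lymphocytes are known to take up little glucose. Lymphocytes that are stimulated and begin to divide are known to raise glucose uptake, glycolysis and lactate release within hours to days.

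The labels did not go with the lineage markers on these arrays. The mean of 12 T cell markers, among them Cd3d and Cd3e, was between 9.47 and 10.11 log2 on the 6 arrays labelled B and between 5.49 and 6.57 on the 6 labelled T. The mean of 11 B cell markers, among them Cd79a and Cd79b, was between 4.92 and 5.15 log2 on the arrays labelled activated B and between 6.85 and 8.13 on those labelled resting B. It was between 9.01 and 9.45 on the arrays labelled resting T and between 10.79 and 10.97 on those labelled activated T. The mean of 9 markers of dividing cells was high on the arrays labelled activated B (10.01 to 10.08) and resting T (9.44 to 9.55), and low on those labelled resting B (5.96 to 6.40) and activated T (5.68 to 6.35). Every group below is therefore named by its label only, and each direction holds for the arrays so labelled.

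On the arrays labelled activated B, most of the measured pathway was higher than on those labelled resting B. Of the 29 genes, 22 were called higher, 1 lower and 6 were not called, with a median log2 difference of 1.46 against -0.02 over all genes. Among all genes, 19.7% were called higher and 16.7% lower in this comparison. Of the 22, 17 were at least 2-fold higher, which 5.48% of all genes were. With each array centred on its 75th percentile, 21 members were higher and 1 lower, while the share of higher calls among all called genes went from 54.1% to 41.9%.

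On the arrays labelled activated T, most of the pathway was lower than on those labelled resting T. Of the 29 genes, 20 were called lower, 3 higher and 6 were not called, with a median log2 difference of -1.34 against 0.02 over all genes. Among all genes, 17.8% were called lower and 15.9% higher. Of the 20, 18 were at least 2-fold lower, against 4.62% of all genes.

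The genes that rose under the B labels were largely those that fell under the T labels, in comparisons that share no array. Of the 29 genes, 18 (62.1%) were higher in the first and lower in the second, as were 12.9% of all genes, and 0 were lower in the first and higher in the second, as were 9.89%. Another 2 were higher in both (Slc2a3 and Eno3), and 2 higher in the first only (Pgls and Taldo1). Then 2 were lower in the second only (Pfkfb3 and Pdk1), Pfkfb4 was higher in the second only, Hk3 was lower in the first only, and Hk1, Ldhb and Rpia were called in neither. The first comparison minus the second, tested as an interaction, was above 0 for 24 genes and below 0 for 2, where 21.9% and 20.9% of all genes were so called.

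**Figure D1:**
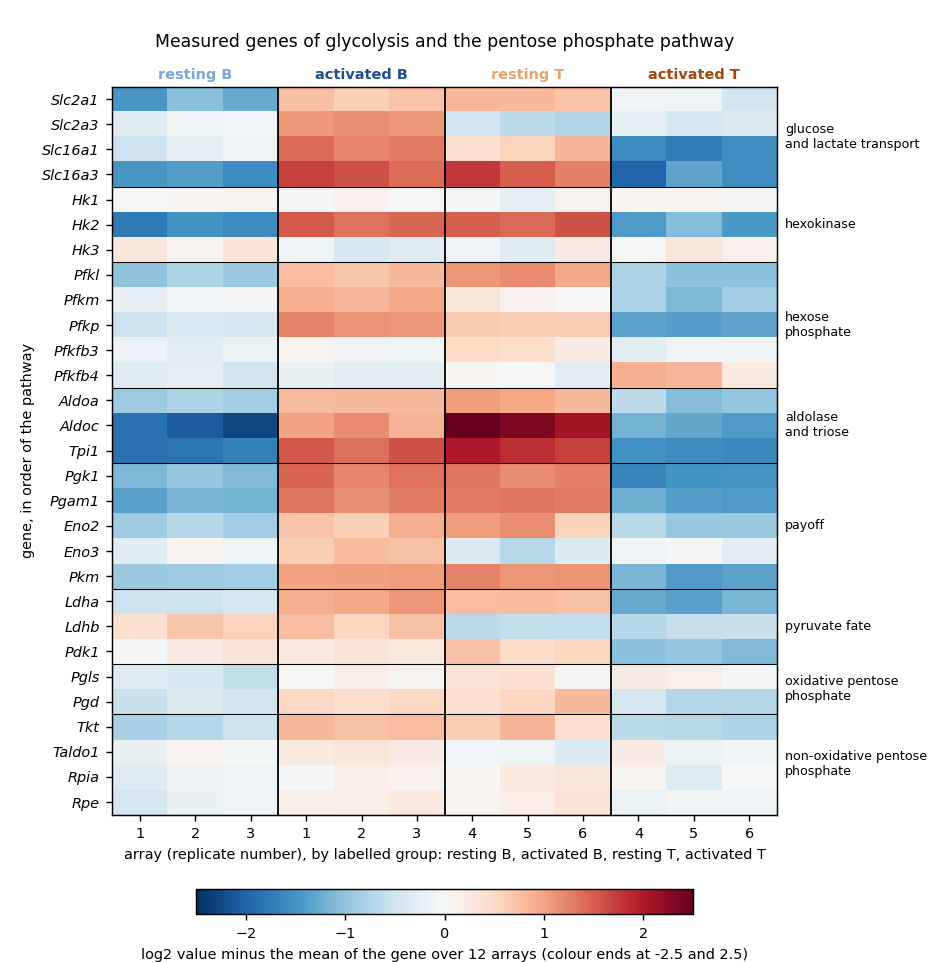
Colours show the log2 value of each measured gene (rows, in order of the pathway) on each of the 12 arrays (columns, by labelled group) minus the mean of that gene over all arrays. In 18 of the 29 rows every array labelled activated B or resting T lies above every array labelled resting B or activated T.

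In 18 of the 29 genes (62.1%), all 6 arrays labelled activated B or resting T lay above all 6 arrays labelled resting B or activated T. The same order held for 2387 of all genes (12%). The opposite order held for 0 of the members and for 8.05% of all genes. The dividing cell markers given above were high and low on the same arrays as these 18 genes, and their part in the result was not tested. Markers of several other cell types ran the other way. The mean of 12 macrophage and monocyte markers was between 6.81 and 7.53 log2 with the label resting B and between 4.68 and 4.78 with activated B, and between 5.52 and 5.65 with resting T and between 6.57 and 7.07 with activated T. Of these 12, 11, 3, 6 and 11 were above the background in the same order. The mean of 8 dendritic cell markers was 6.39 to 6.66, 4.65 to 4.90, 4.97 to 5.20 and 5.99 to 6.21 log2 in this order, with 8, 2, 3 and 8 above the background. That of 5 platelet and megakaryocyte markers was 6.31 to 6.43, 5.08 to 5.10, 5.08 to 5.32 and 5.94 to 6.02, with 5, 2, 2 and 4 above it. These lists were thus high where the 18 genes were low, and their part was not tested either.

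The mean of 10 neutrophil markers was 4.69 to 5.14, 4.35 to 4.45, 4.40 to 4.49 and 4.52 to 4.73 log2 in the same order, with 4, 0, 1 and 1 above the background, and that of 6 erythroid markers lay between 4.82 and 5.49 on all arrays. The mean of 8 natural killer cell markers was 7.66 to 8.34 with the label resting B, 6.30 to 6.73 with activated B, 5.21 to 6.19 with resting T and 5.80 to 6.97 with activated T. That of 7 plasma cell markers was 8.26 to 8.47 with resting T and between 6.89 and 7.58 under the other labels. In RNA from a mixed population, a lower level can come from fewer cells of a type or from less RNA per cell, which cannot be told apart here.

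The sequence around the start of transcription was read for 32 of the 33 genes from RefSeq (GRCm38.p6), as windows from 250 bases before to 50 bases after each annotated start. Slc2a3 had no window. Both strands were searched for CACGTG, the E-box of MYC and MAX, for ACGTG, the core of the hypoxia response element, which every CACGTG contains, and for GGGCGG, the GC box of SP and KLF factors. ACGTG was found in 16 of 32 genes (50%), against 21.8% of 27025 genes with a window. Among the 16, Gapdh, Hk1, Aldoc and G6pdx had it only after the start. GGGCGG was found in 25 of 32 (78.1%), against 38.2% of all genes. CACGTG was found in 4 of 32 (12.5%; Ldha, Pfkfb3, Pfkm and Slc16a1), against 8.09%. The members have more windows per gene than all genes do, 46 for 32 genes against 32851 for 27025. Counted by window, the shares were 41.3% against 19.6% for ACGTG, 60.9% against 35.7% for GGGCGG and 8.7% against 7.15% for CACGTG. A match is a match of letters only.

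Shown are the stretches of the measured members with 2 or more separate ACGTG matches before the start within 1 window, as the windows with most matches there. Aldoa, Pfkfb3 and Pfkm, with single matches before each of 2 annotated starts, are not shown. The windows of Aldoa overlap and hold the same match, which the shares by window count in each of them. Each stretch is written in the direction of transcription with 20 bases on both sides of the outer matches, cut at the last base before the start, and capitals mark ACGTG, its reverse complement CACGT, or both where they overlap as CACGTG. The Hk2 stretch lies on the minus strand of chromosome 6 at chr6:82774482-82774700, from 246 to 28 bases before the start. The Ldha stretch lies on the plus strand at chr7:46845639-46845794, from 165 to 10 bases before the start. The Slc16a3 stretch lies on the plus strand at chr11:120949020-120949066, from 47 bases to 1 base before the start. The Pgk1 stretch lies on the plus strand at chrX:106186930-106186993, from 170 to 107 bases before the start.
Hk2: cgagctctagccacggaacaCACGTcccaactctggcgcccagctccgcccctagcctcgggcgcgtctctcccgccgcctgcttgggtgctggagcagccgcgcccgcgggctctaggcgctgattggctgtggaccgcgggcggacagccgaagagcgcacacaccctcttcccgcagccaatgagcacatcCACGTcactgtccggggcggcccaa
Ldha: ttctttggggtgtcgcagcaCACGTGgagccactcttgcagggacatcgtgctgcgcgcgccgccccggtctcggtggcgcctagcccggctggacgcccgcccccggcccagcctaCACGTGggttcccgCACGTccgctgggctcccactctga
Slc16a3: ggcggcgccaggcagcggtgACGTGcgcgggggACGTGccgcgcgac
Pgk1: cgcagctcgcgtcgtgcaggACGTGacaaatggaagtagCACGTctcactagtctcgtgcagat
The Ldha stretch holds 3 matches, of which 2 are CACGTG, and the other 3 stretches hold 2 matches each.

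Glucose enters lymphocytes mainly through the transporters GLUT1 and GLUT3, encoded by Slc2a1 and Slc2a3. Slc2a1 measured 7.96, 8.36 and 8.15 log2 on the arrays labelled resting B and 10.16, 9.9998 and 10.13 on those labelled activated B. On the arrays labelled resting T it measured 10.24, 10.22 and 10.12, and 9.32, 9.27 and 8.93 on those labelled activated T. Those labelled activated B overlapped with those labelled resting T, and both lay above the other groups, which did not overlap with each other. The log2 difference (± SE) was 1.94 ± 0.12 in the labelled B cells (adjusted p = 1.17e-09, 3.83-fold) and -1.02 ± 0.12 in the labelled T cells (adjusted p = 2.79e-06).

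Slc2a3 followed another order. It measured 9.08, 9.27 and 9.31 log2 with the label resting B, 10.46, 10.55 and 10.46 with activated B, 8.90, 8.73 and 8.65 with resting T and 9.15, 8.98 and 9.03 with activated T. The arrays labelled activated B stood above the other 9, and those labelled resting T, which were high in Slc2a1, had the lowest Slc2a3. The differences were 1.27 ± 0.10 (adjusted p = 1.81e-08) in the labelled B cells and 0.29 ± 0.10 (adjusted p = 0.02865) in the labelled T cells. The T difference was no longer called without array 4 labelled activated T (0.24, adjusted p = 0.1145), without array 5 or 6 labelled resting T (0.28 and 0.24), without array 6 labelled activated T (0.30), or in a fit of the groups compared alone.

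Lactate leaves cells with protons through the monocarboxylate transporters. Slc16a3, which encodes MCT4, the exporter typical of strongly glycolytic cells, measured 6.41, 6.49 and 6.29 log2 with the label resting B and 9.56, 9.48 and 9.26 with activated B. It measured 9.63, 9.34 and 9.12 with the label resting T and 5.88, 6.53 and 6.30 with activated T. The levels thus fell into a high and a low pair of groups, and within each pair the arrays overlapped. The log2 differences were 3.03 ± 0.15 (8.19-fold higher, adjusted p = 1.05e-10) and -3.13 ± 0.15 (8.73-fold lower, adjusted p = 8.67e-11).

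Slc16a1, which encodes MCT1 and carries lactate and pyruvate in both directions, separated all 4 groups. The means ± SD (n = 3) were 7.89 ± 0.21, 9.49 ± 0.10, 8.78 ± 0.23 and 6.54 ± 0.11 log2 with the labels resting B, activated B, resting T and activated T. No groups overlapped. The differences were 1.60 in the labelled B cells (adjusted p = 2.77e-08) and -2.24 in the labelled T cells (adjusted p = 4.50e-10).

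**Figure D2:**
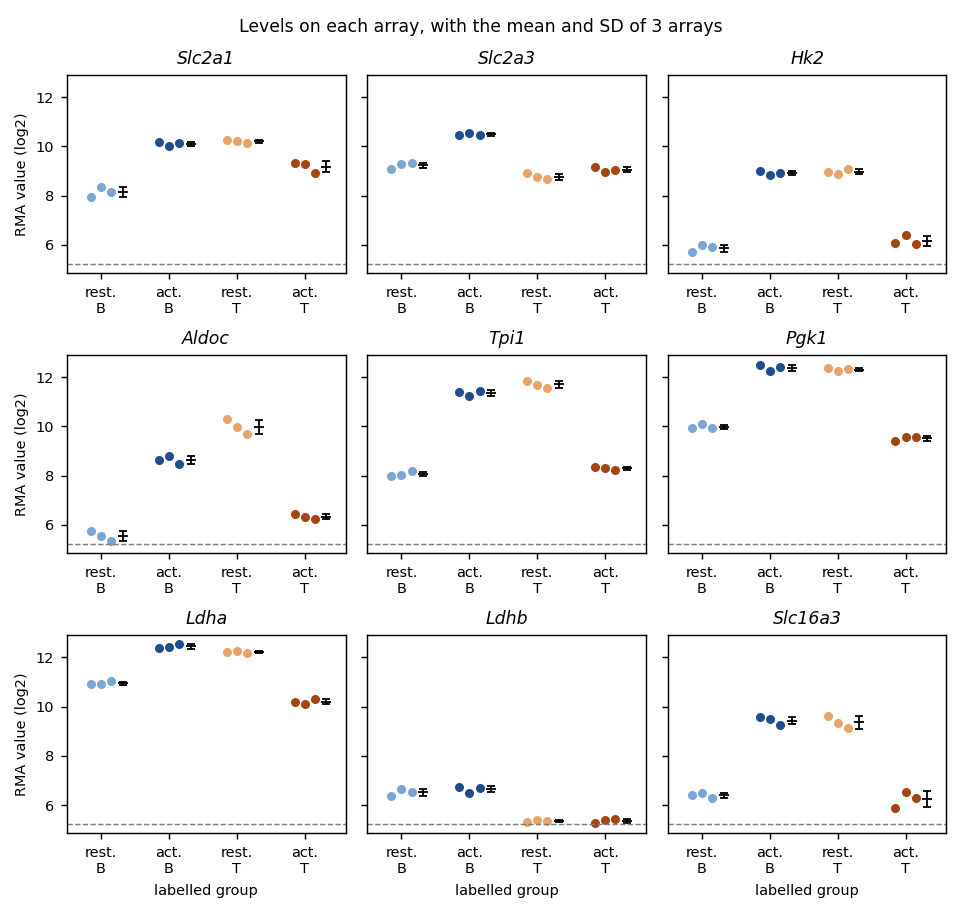
Points give the RMA value (log2) of 9 genes on each array by labelled group, with the mean and SD of the 3 arrays beside them, and the dashed line is the background level of 5.21. Slc2a1, Hk2, Aldoc, Tpi1, Pgk1, Ldha and Slc16a3 are highest with the labels activated B and resting T, while Slc2a3 is highest with activated B alone and Ldhb is near the background under both T labels.

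Hexokinases trap glucose in the cell as glucose phosphate, and Hk2 encodes the form that is induced by growth signals. Hk2 measured 5.70, 5.98 and 5.89 log2 with the label resting B, 9.0, 8.83 and 8.90 with activated B, 8.97, 8.88 and 9.07 with resting T and 6.07, 6.39 and 6.04 with activated T. A gap of over 2 log2 separated the high from the low groups. Hk2 was 8.32-fold higher with the label activated B than resting B (3.06 ± 0.11 log2, adjusted p = 2.41e-12) and 7.02-fold lower with activated T than resting T (-2.81 ± 0.11, adjusted p = 7.48e-12).

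Hk1 encodes the hexokinase found in most tissues, and its result depended on the probe set. The probe set with the highest mean measured between 12.55 and 12.91 log2 on all 12 arrays and was called in no comparison. It was matched to 1 accession only, which 15 probe sets with several symbols also carry, one of them with a ribosomal protein gene, and its neighbours in the numbering of the array lie on chromosome 14, while Hk1 is on chromosome 10. The other Hk1 probe set, whose neighbours lie on chromosome 10, measured 8.13, 7.94 and 7.99 with the label resting B and 8.49, 8.76 and 8.72 with activated B. It measured 8.15, 8.14 and 7.91 with resting T and 7.21, 7.13 and 7.31 with activated T. On this probe set, looked at after its values were seen, Hk1 was higher in the labelled B cells (0.64, adjusted p = 1.03e-04) and lower in the labelled T cells (-0.85, adjusted p = 5.55e-06).

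Hk3, the hexokinase of myeloid cells, was at or near the background, with means of 5.28, 4.77, 4.97 and 5.19 log2 in the order of the labels above. It was the only member called lower with the label activated B than resting B (-0.51 ± 0.13, adjusted p = 0.005076). With low values raised to the background, it was at least 1.05-fold lower. Where genes below the background were left out, Hk3 itself was not tested. The macrophage and monocyte markers given above also went from high to low in this comparison, and their part in the Hk3 result was not tested. Csf1r, the receptor that defines this lineage, went from a mean of 7.71 to 5.23.

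Phosphofructokinase commits hexose phosphate to glycolysis, and its liver, muscle and platelet forms are encoded by Pfkl, Pfkm and Pfkp. All 3 were higher with the label activated B than resting B, by 1.66, 1.01 and 1.59 log2 (adjusted p = 1.06e-09, 1.08e-06 and 2.63e-10). All 3 were lower with the label activated T than resting T, with log2 differences of -2.02, -1.06 and -1.97 (adjusted p = 1.06e-10, 7.00e-07 and 2.39e-11). They differed in which group was highest. Pfkl measured 9.66, 9.72 and 9.51 log2 with the label resting T against 9.32, 9.24 and 9.36 with activated B. Pfkp measured 10.10, 10.05 and 10.07 against 10.68, 10.55 and 10.52 and Pfkm 7.25, 7.05 and 6.93 against 7.86, 7.77 and 7.91, so that for these genes every array labelled activated B lay above every array labelled resting T.

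Pfkfb3 and Pfkfb4 encode bifunctional enzymes that make and break the fructose bisphosphate by which phosphofructokinase is activated. Neither was called between the labels activated B and resting B, with log2 differences of 0.16 (95% interval -0.06 to 0.38) and 0.09 (-0.22 to 0.40). In the labelled T cells they went opposite ways. Pfkfb3 measured 8.01, 7.95 and 7.70 log2 with the label resting T and 7.22, 7.42 and 7.41 with activated T (-0.54 ± 0.10, adjusted p = 5.10e-04). Pfkfb4 measured 6.58, 6.53 and 6.26 with resting T and 7.43, 7.37 and 6.77 with activated T (0.73 ± 0.15, adjusted p = 6.70e-04). Pfkfb4 was thus the only member whose arrays labelled activated T stood above the other 9.

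Aldolase splits the fructose bisphosphate that phosphofructokinase makes, an isomer of the activator named above, into triose phosphates. Triose phosphate isomerase, encoded by Tpi1, brings both products into the payoff phase. Aldoa, the form of most cells and of muscle, was 3.14-fold higher with the label activated B and 3.59-fold lower with activated T than with the matching resting label. Aldoc, the form best known from brain, measured 5.77, 5.55 and 5.35 log2 with the label resting B and 8.65, 8.81 and 8.48 with activated B. It measured 10.29, 9.97 and 9.71 with resting T and 6.45, 6.34 and 6.22 with activated T. All 4 groups stood apart, from near the background with the label resting B to the highest level with resting T.

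Aldoc had the largest fall of any member in the labelled T cells (-3.65 ± 0.14 log2, 12.6-fold, adjusted p = 6.23e-12), and rose by 3.09 in the labelled B cells (adjusted p = 3.52e-11). Tpi1 had the largest rise of any member in the labelled B cells. It measured 7.99, 8.04 and 8.18 log2 with the label resting B and 11.41, 11.23 and 11.45 with activated B, a difference of 3.29 ± 0.10 (9.8-fold, adjusted p = 4.19e-13). With the labels resting T and activated T it measured 11.86, 11.70 and 11.57 and 8.35, 8.29 and 8.24, a difference of -3.42 ± 0.10 (adjusted p = 5.63e-13). The low groups thus reached up to 8.35 log2 and the high groups began at 11.23.

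In the payoff phase, phosphoglycerate kinase (Pgk1) and pyruvate kinase (Pkm) make ATP, and phosphoglycerate mutase (Pgam1) and enolase stand between them. Pgk1 measured 9.94, 10.08 and 9.94 log2 with the label resting B, 12.51, 12.27 and 12.41 with activated B, 12.37, 12.23 and 12.32 with resting T and 9.40, 9.56 and 9.57 with activated T. Its high groups overlapped and its low groups did not, with resting B above activated T. The differences were 2.41 ± 0.09 (adjusted p = 5.30e-12) in the labelled B cells and -2.79 ± 0.09 (adjusted p = 1.44e-12) in the labelled T cells.

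Pkm was 3.76-fold higher with the label activated B than resting B and 5.49-fold lower with activated T than resting T (adjusted p = 6.02e-11 and 4.25e-12). Its neighbours in the array's numbering lie on chromosome 5 while the gene is on chromosome 9, but the other Pkm probe set, with neighbours on chromosome 9, had the same high and low groups. That probe set measured 8.44, 8.72 and 8.70 log2 with the label resting B and 10.41, 10.46 and 10.49 with activated B. Pgam1 was 5.59-fold higher and 6.24-fold lower in the same comparisons (adjusted p = 2.88e-12 and 2.02e-12). Its one probe set has neighbours on chromosome 7 while the gene is on chromosome 19, so that its identity rests on the annotation alone.

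The measured enolases differed. Eno2, the form of neurons, lay at 4.99, 5.16 and 5.01 log2 with the label resting B and 5.18, 4.94 and 4.96 with activated T, all under the background level, and at 6.6, 6.48 and 6.78 with activated B and 6.93, 7.05 and 6.46 with resting T. With low values raised to the background, Eno2 was at least 2.66-fold higher with the label activated B than resting B and at least 3.04-fold lower with activated T than resting T (measured differences of 1.57 and -1.79 log2, adjusted p = 7.76e-08 and 1.76e-08). Eno3, the form of muscle, measured 7.72, 7.90 and 7.82 with the label activated B, above the 9 other arrays, which lay between 6.41 and 7.15. It was higher in the labelled B cells by 0.83 ± 0.12 (adjusted p = 1.91e-05). The smaller difference in the labelled T cells (0.32 ± 0.12, adjusted p = 0.04235) was not called without array 5 labelled resting T (0.21, adjusted p = 0.2136), without array 4 or 5 labelled activated T (0.30 and 0.28), without array 3 of either B label, or in a fit of the groups compared alone.

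Pyruvate is reduced to lactate by lactate dehydrogenase, whose subunits are encoded by Ldha and Ldhb. Pdk1 encodes a kinase that limits the oxidation of pyruvate in the mitochondria by inhibiting pyruvate dehydrogenase. Ldha measured 10.91, 10.93 and 11.02 log2 with the label resting B, 12.37, 12.42 and 12.55 with activated B, 12.22, 12.25 and 12.18 with resting T and 10.19, 10.10 and 10.30 with activated T. Even its lowest array was far above the background, and no pair of groups overlapped. The differences were 1.5 ± 0.09 (adjusted p = 8.29e-10) in the labelled B cells and -2.02 ± 0.09 (adjusted p = 2.70e-11) in the labelled T cells.

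Ldhb, the subunit typical of heart, divided the arrays by the labelled cell type. It measured 6.37, 6.66 and 6.55 log2 with the label resting B and 6.75, 6.51 and 6.71 with activated B. The arrays labelled resting T and activated T gave 5.32, 5.37 and 5.35 and 5.27, 5.40 and 5.41, close to the background. The log2 difference between the labels resting B and resting T was 1.18 ± 0.10 (adjusted p = 4.66e-08), and that between activated B and activated T was 1.3 ± 0.10 (adjusted p = 1.03e-08). A second Ldhb probe set, the one with neighbours on the gene's own chromosome 6, showed the same order of the labelled cell types (5.54 to 6.12 against 4.59 to 5.19), and on it the difference between the labels activated B and resting B was called (0.37, adjusted p = 0.01001). All 6 arrays labelled T were under the background on this probe set, so that no difference between them is given.

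Pdk1 changed under the T labels. It measured 8.79, 8.51 and 8.59 log2 with the label resting T and 7.03, 7.08 and 6.95 with activated T, a difference of -1.61 ± 0.10 (adjusted p = 2.59e-09). With the labels resting B and activated B it lay between 8.02 and 8.37 and between 8.29 and 8.37, and the difference of 0.10 had a 95% interval of -0.12 to 0.33. The arrays labelled activated T were thus alone below the rest, and the interaction was 1.71 log2 (adjusted p = 4.58e-08).

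**Figure D3:**
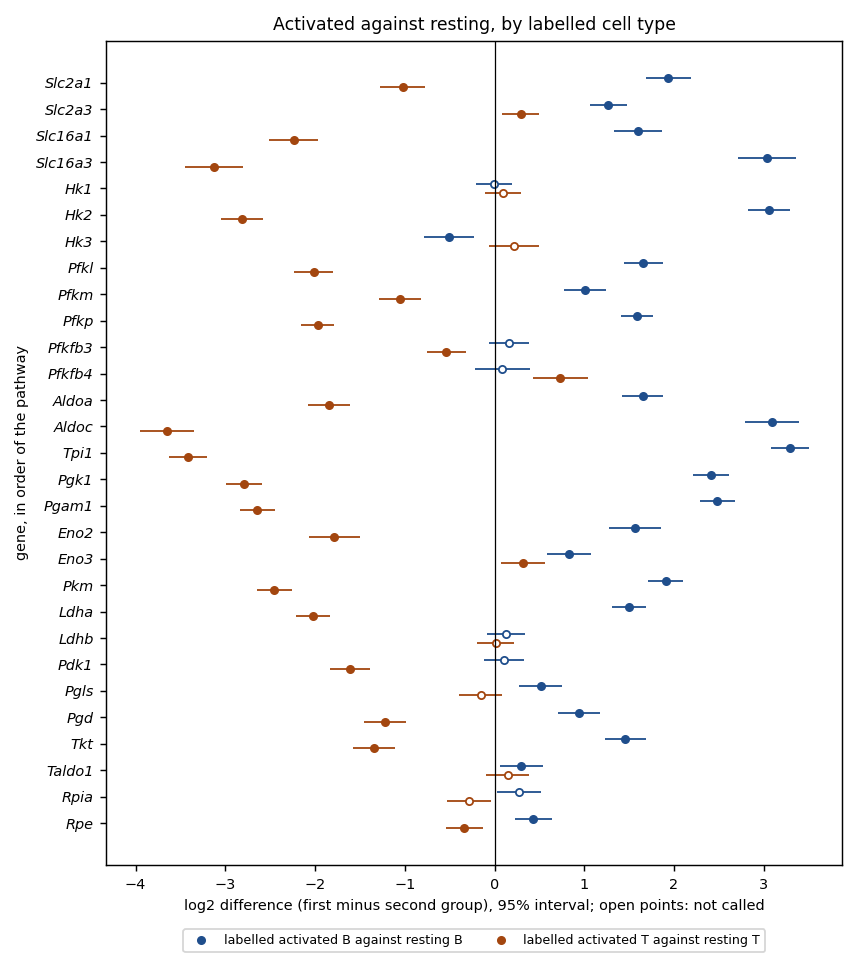
Each gene has its log2 difference and 95% interval for the labels activated B against resting B (blue) and activated T against resting T (brown), with open points for differences that were not called. Blue points reach from -0.51 (Hk3) to 3.29 (Tpi1) and brown points from -3.65 (Aldoc) to 0.73 (Pfkfb4).

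The oxidative branch of the pentose phosphate pathway, which yields NADPH, was measured by 2 of its 3 listed genes. Pgd, the phosphogluconate dehydrogenase, had means ± SD (n = 3) of 8.56 ± 0.09 and 9.51 ± 0.05 log2 with the labels resting B and activated B, and 9.61 ± 0.20 and 8.39 ± 0.15 with resting T and activated T. It rose by 0.94 (adjusted p = 2.65e-06) under the B labels and differed by -1.22 (adjusted p = 1.59e-07) under the T labels. Pgls, the lactonase before it, was higher with the label activated B than resting B by 0.52 (adjusted p = 0.001382), and its difference under the T labels of -0.15 had an interval of -0.39 to 0.09.

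The non-oxidative branch, which links ribose phosphate with glycolysis, gave smaller differences for 3 of its 4 genes. Tkt, the transketolase, was 2.75-fold higher with the label activated B and 2.54-fold lower with activated T than with the matching resting label (adjusted p = 1.31e-08 and 4.01e-08). It measured 7.95, 8.03 and 8.22 log2 with the label resting B and 9.56, 9.48 and 9.53 with activated B, without overlap. Rpe, an epimerase of pentose phosphates, differed by 0.43 (adjusted p = 0.00201) and -0.34 (adjusted p = 0.01334), and the second call was lost without array 6 labelled resting T (-0.27, adjusted p = 0.06471).

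Rpia, the isomerase that makes ribose phosphate, was not called under either label (0.28, interval 0.03 to 0.52, and -0.28, interval -0.53 to -0.04). In 3 alternatives for each comparison it was called, among them that with genes above the background only (adjusted p = 0.04759 and 0.04582). Taldo1, the transaldolase, passed the threshold by a narrow margin with the label activated B (0.30 ± 0.11, adjusted p = 0.0499), and 13 alternatives did not call it, among them each that left out 1 array labelled activated B or array 1 or 3 labelled resting B (0.23 to 0.32). The range of Taldo1 over all 12 arrays was from 7.34 to 7.99 log2.

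With the label resting B most members were lower than with resting T. Of the 29 genes, 21 were called lower and 3 higher with the label resting B than resting T, where 19% and 16.1% of all genes were so called. The median log2 difference was -1.04, against -0.00 over all genes. Aldoc (-4.43), Tpi1 (-3.64) and Hk2 (-3.12) differed most, and Slc2a3, Eno3 and Ldhb were the genes called higher. The Eno3 call (0.35, adjusted p = 0.02662) was lost without array 5 labelled resting T (0.24, adjusted p = 0.1486) or without array 2 or 3 labelled resting B (0.26 and 0.34). The Rpia call (-0.40, adjusted p = 0.01132) was lost without array 1 labelled resting B (-0.34, adjusted p = 0.05553) or array 6 labelled resting T (-0.34, adjusted p = 0.05033).

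Between the labels activated B and activated T the order was turned. With the label activated B, 22 genes were called higher and 2 lower than with activated T, against 21.8% and 18.9% of all genes, and 19 of the 22 were at least 2-fold higher, as were 7.41% of all genes. The median log2 difference was 1.48, against -0.03 over all genes, and the largest were those of Slc16a3 (3.19), Tpi1 (3.07) and Slc16a1 (2.94). Pfkfb4 (-0.90) and Hk3 (-0.42) were the genes called lower. Hk3 was under the background in both groups, and its call was lost without array 2 labelled activated B (-0.35, adjusted p = 0.07569) or array 5 labelled activated T (-0.33, adjusted p = 0.08981). Centring on the 75th percentile left 21 members higher and 2 lower, while the share of higher calls among all called genes went from 53.5% to 39.2%.

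The remaining comparisons set each high group of arrays against the other, and each low group against the other. Between the labels activated B and resting T, 7 of the 29 genes were called higher and 5 lower, where 13% and 9.93% of all genes were so called. The genes higher with the label activated B were Slc2a3 (1.72), Ldhb (1.31), Eno3 (1.18), Pfkm (0.77), Slc16a1 (0.70), Pfkp (0.51) and Taldo1 (0.43). The Taldo1 call was lost without array 6 labelled resting T (0.34, adjusted p = 0.05508).

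The genes lower with the label activated B than resting T were Aldoc (-1.34, adjusted p = 1.42e-06), Pfkfb3 (-0.42), Tpi1 (-0.35), Pfkl (-0.32) and Pdk1 (-0.31). With each array centred on its median only 3 of these were called lower, at the same 7 higher. Without array 2 labelled activated B or array 4 labelled resting T 2 were called lower, and without array 1 labelled activated B 3 were. The Tpi1 call was lost without array 2 labelled activated B (-0.28, adjusted p = 0.08994) or array 4 labelled resting T (-0.27, adjusted p = 0.092), and the calls of Pdk1 and Pfkl were lost in 9 and 5 alternatives. Hk2, Slc2a1, Aldoa, Pgam1 and Slc16a3 overlapped between these groups, with differences from -0.14 to 0.07 log2.

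Between the labels resting B and activated T, 8 genes were called higher and 4 lower, where 9.68% and 8.82% of all genes were so called. Slc16a1 (1.35), Pdk1 (1.20), Ldhb (1.17), Pfkp (0.90), Pfkm (0.82), Ldha (0.76), Pgk1 (0.47) and Pkm (0.41) were higher with the label resting B. Slc2a1 (-1.02), Pfkfb4 (-0.99), Aldoc (-0.78) and Pgls (-0.54) were lower. Slc2a1 had the largest difference in this direction, with no overlap between 7.96, 8.36 and 8.15 and 9.32, 9.27 and 8.93.

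**Figure D4:**
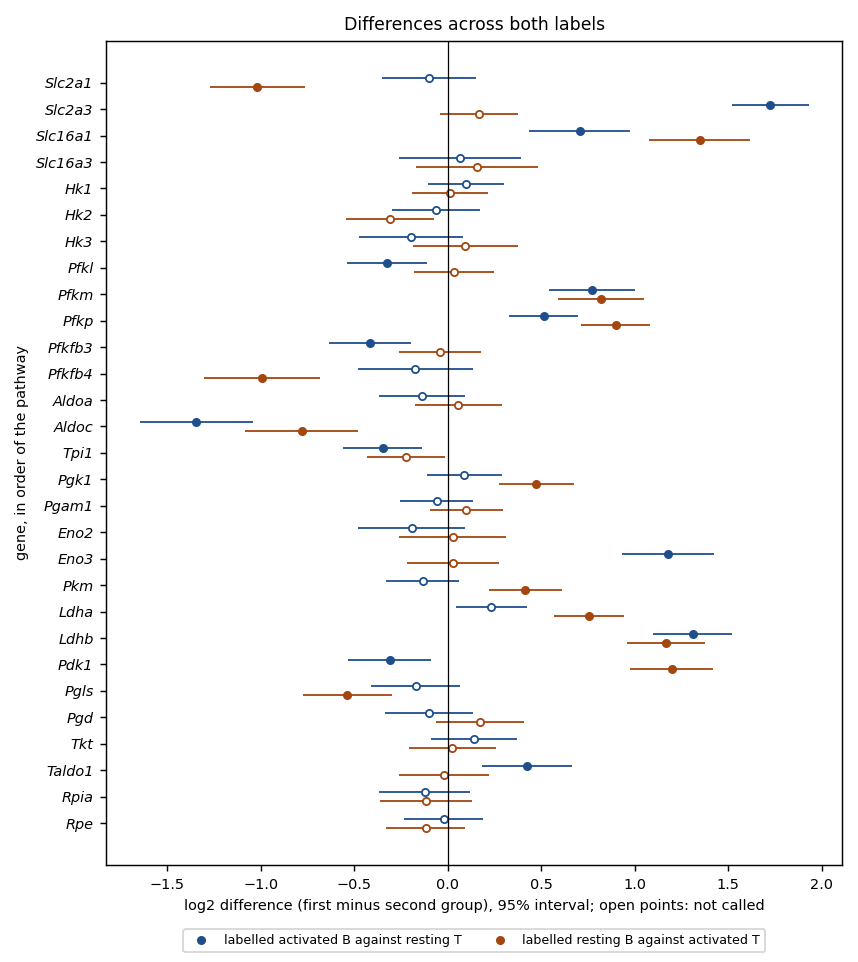
Each gene has its log2 difference and 95% interval for the labels activated B against resting T (blue) and resting B against activated T (brown), with open points for differences that were not called. Most points lie near 0, and Slc2a3, Eno3, Ldhb and Aldoc in blue and Slc16a1, Pdk1, Ldhb and Slc2a1 in brown lie more than 1 log2 away from it.

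Whether isoforms of a step moved unequally was asked through the log2 ratio of both genes on the same array. A ratio of different probe sets has no meaning as a level, but its differences between groups do. For 9 pairs the ratio was compared among the 4 labelled groups with an exact permutation test of the F statistic over 369600 arrangements of the arrays, whose smallest possible p is 6.49e-05. That smallest p was reached by 3 pairs, Slc2a1 over Slc2a3, Aldoc over Aldoa, and Ldhb over Ldha (0.000195 after adjustment over the 9 pairs). The 7 pairs without Hk1 had an adjusted p of 0.00504 or less, and the pairs with Hk1 are given apart because of its doubtful probe set. Pairs with Eno1 could not be computed.

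Slc2a1 over Slc2a3 had means of -1.06 and -0.39 log2 with the labels resting B and activated B, and 1.43 and 0.12 with resting T and activated T. The ratio was thus lower on every array labelled B than on every array labelled T. Slc16a1 over Slc16a3 was highest with the label resting B (1.49 ± 0.26) and lowest with resting T (-0.58 ± 0.49; SD, n = 3; exact p = 0.0011). Pfkp over Pfkl had means of 1.35 and 1.28 with the labels resting B and activated B and of 0.44 and 0.49 with resting T and activated T (exact p = 0.00448). The ratio of these forms thus differed between the labelled cell types while it stayed within 0.07 log2 of itself between the resting and activated labels of both.

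Pfkm over Pfkl was highest with the label resting B and lowest with resting T (-0.81 and -2.55, exact p = 0.00026). Aldoc over Aldoa went from -4.93 with the label resting B to -3.49 with activated B, and from -2.28 with resting T to -4.09 with activated T. The direction of this shift, towards Aldoc where the pathway was high, was the same under both cell type labels. Ldhb over Ldha went from -4.43 to -5.79 and from -6.87 to -4.84 in the same comparisons, and so was lower where the pathway was high. Ldhb itself was called in neither comparison (0.13 and 0.01 log2), so that the ratio in effect followed the level of Ldha. Under the T labels Ldhb was close to the background, and no shift between isoforms is read from the ratio there. Since Ldhb and Aldoc were near the background in some groups, the compression of low values bears on the size of these ratio differences.

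Pfkfb4 over Pfkfb3 was -0.16 ± 0.44 with the label activated T and between -1.43 and -1.11 in the means of the other groups (exact p = 0.00039). With the Hk1 probe set near its own chromosome, Hk2 over Hk1 had means of -2.16, 0.26, 0.91 and -1.05 in the order resting B, activated B, resting T and activated T (exact p = 6.49e-05). With the first Hk1 probe set, which hardly varied, the ratio was in effect the level of Hk2 (exact p = 0.000195). Hk3 over Hk1 sets a gene at or near the background against this probe set (exact p = 0.0194, or 0.0882 without array 2 labelled activated B and 0.051 without array 1 or 3 labelled resting B), and no shift between isoforms is read from it.

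**Figure D5:**
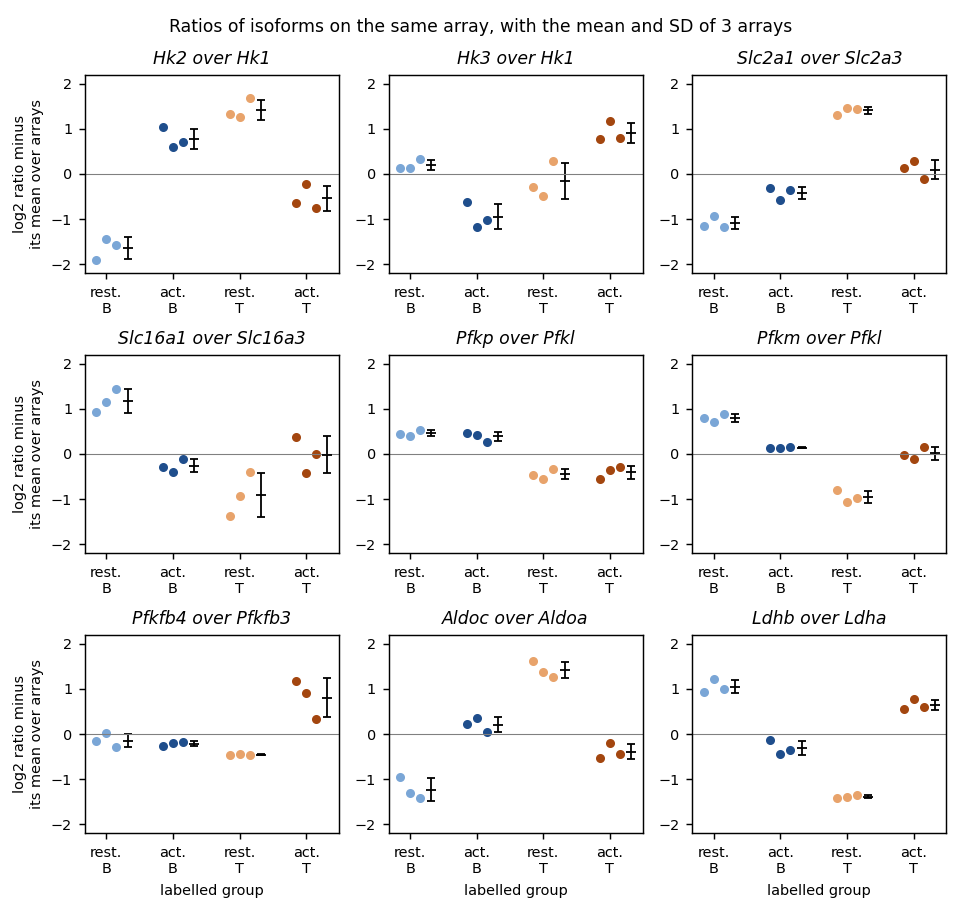
Points give the log2 ratio of 9 pairs of isoforms on each array minus the mean of that ratio over 12 arrays, by labelled group, with the mean and SD of the 3 arrays beside them. The Hk1 pairs use the probe set with neighbours on the gene's own chromosome. Pfkp over Pfkl separates the B labels from the T labels, and Aldoc over Aldoa and Hk2 over Hk1 are highest with resting T and lowest with resting B.

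Genes next to these pathways were described from lists of the same kind. Of 39 other isoforms and linked enzymes, 34 were measured, and 7 (20.6%) were higher and 5 (14.7%) lower with the label activated B than resting B, where 19.7% and 16.7% of all genes were so called. With activated T against resting T, 3 (8.82%) were higher and 10 (29.4%) lower, where 15.9% and 17.8% of all genes were. Pgm1, a phosphoglucomutase that links glucose phosphate with glycogen, differed by 1.98 and -2.29 log2 in these comparisons (adjusted p = 2.08e-08 and 3.80e-09), and Pdk3, another kinase of pyruvate dehydrogenase, by 1.24 and -1.53 (adjusted p = 9.14e-08 and 7.54e-09). Slc2a6, a transporter of the glucose transporter family, differed by -1.92 and Prps1, which makes the activated ribose for nucleotides, by -1.42 under the T labels. Slc16a7, another monocarboxylate transporter, was higher with activated T than resting T by 1.44, and its means of 4.85 and 4.11 with the labels resting B and activated B were both under the background. With centring on the 75th percentile the counts were 7 higher and 8 lower, and 5 higher and 7 lower.

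The mitochondrial genes for pyruvate and the tricarboxylic acid cycle went with the glycolytic genes, at smaller size. Of 18 measured cycle genes, 13 (72.2%) were higher and 0 lower with the label activated B than resting B, where 19.7% and 16.7% of all genes were so called. With activated T against resting T 0 were higher and 12 (66.7%) lower, where 15.9% and 17.8% of all genes were. Their median log2 differences were 0.53 and -0.48, against -0.02 and 0.02 over all genes. Sdhd, a subunit of succinate dehydrogenase, differed by 1.14 and -0.96, and Cs, the citrate synthase, by 1.07 and -0.54. Of 9 measured genes of mitochondrial pyruvate use, 6 (66.7%) were higher under the B labels and 5 (55.6%) lower under the T labels, among them Pcx, the pyruvate carboxylase (1.20 and -0.59). With quantile normalization, 10 cycle genes were higher and 2 lower under the B labels. Of 7 genes of gluconeogenesis, 2 (28.6%), Pck2 and G6pc3, were called in both comparisons (1.17 and -0.37, 0.82 and -0.40). Higher under the B labels and lower under the T labels, as these were, were 12.9% of all genes. The other 5 genes of gluconeogenesis were called in neither.

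The regulators of glycolysis did not move as 1 group. Of 16 measured, 6 (37.5%) were higher and 5 (31.2%) lower with the label activated B than resting B, and 6 (37.5%) were higher and 6 lower with activated T than resting T. All 4 shares were above those of all genes, which were 19.7% and 16.7% under the B labels and 15.9% and 17.8% under the T labels. Hif1a, the hypoxia-inducible factor, measured 8.53, 8.5 and 8.66 log2 with the label resting B and 10.82, 10.76 and 10.71 with activated B. With resting T it measured 8.35, 8.40 and 8.30, and 8.67, 8.67 and 8.70 with activated T, so that the arrays labelled activated B alone stood above the rest. They also did for Slc2a3, Eno3 and Taldo1, and for Pfkm, Pfkp, Ldha and Slc16a1 among the 18 members above. In all 18 the arrays labelled resting T also lay above all those labelled resting B or activated T, for Pfkm by a small gap. The log2 differences of Hif1a were 2.2 (adjusted p = 3.64e-12) and 0.33 (adjusted p = 0.005069).

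Egln3, a prolyl hydroxylase that marks this factor for decay, measured under the background in the means of the labels resting B (4.99) and activated T (4.20). With low values raised to the background, it was at least 16.2-fold higher with activated B than resting B (adjusted p = 1.11e-12) and at least 2.23-fold lower with activated T than resting T (adjusted p = 3.68e-09). Myc measured 9.03, 9.05 and 9.0 with the label resting B, 10.36, 10.13 and 10.33 with activated B, between 9.88 and 10.08 with resting T and 8.92, 8.95 and 9.11 with activated T. Its high and low groups were those of the 18 members above, with differences of 1.24 (adjusted p = 1.82e-08) and -0.99 (adjusted p = 3.25e-07). Txnip, which limits glucose uptake, ran the other way, with differences of -1.18 (adjusted p = 3.19e-06) and 0.75 (adjusted p = 3.94e-04). Irf4 (3.0 and -1.13) and Bhlhe40 (1.68 and -0.83), transcription factors of activated lymphocytes, went with the members, and Nfe2l2 (-1.03 and 0.82) and Mlxip (-0.49 and 1.09) against them.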

How the data were processed

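Gene expression was measured on 12 Affymetrix arrays, 3 for each of 4 labelled groups. The values the authors deposited are on a log2 scale with 1 value for each probe set of an array, and the processing notes of the submitters name RMA, without a version. RMA corrects the background, brings the arrays to 1 distribution and combines probes, so that a shift of most genes one way cannot be seen and low values are compressed. Array medians were between 5.50 and 5.68 log2. Arrays have no read depth, and their number limits the precision.

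Of 34760 probe sets, 21640 carried 1 gene symbol, 1321 several and 11799 were unnamed here. Identifiers of 21553 were found in the RefSeq gene table (GRCm38.p6), which changed 0 symbols. Where a gene had several probe sets (954 genes), the highest mean over 12 arrays decided, which left 19937 genes. Of all such probe sets, 97.3% had neighbours in the array's numbering (5 on each side) on the gene's own chromosome.

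Tests used limma 3.58.1 (R 4.3.3) with a mean per labelled group, lmFit and eBayes, with 8 residual and 7.8 prior degrees of freedom. A gene was called at an adjusted p (Benjamini-Hochberg, all genes) under 0.05. The fit was tested on simulated data. Isoform ratios were compared by exact permutation. Tables came from pandas 2.3.3 and numpy 2.4.6 in Python 3.11.15, and figures from matplotlib 3.10.9.

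The members and lists were chosen with earlier results of these data known. All members are named, and of the other lists those called with a difference of at least 1 log2 and the 3 with the largest difference in a comparison of activated with resting arrays, though not every one is printed. A fold against a group under the background is a lower bound, from the mean of the bright group and that of the dim group with each value raised to the background.

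Replicate numbers 1 to 3 are shared by the B labels and 4 to 6 by the T labels. Arrays with the same number deviated from their groups with correlations of -0.06, 0.06 and 0.25 under the B labels (12170 genes brighter than background). Under the T labels the correlations were 0.22, 0.16 and 0.23. No correlation between arrays of different number is given here for comparison. Whether the numbers pair arrays under either label therefore cannot be decided from these values. Alternatives were other scalings, a filter on dim genes, means of probe sets, fits of the groups compared alone, an intensity trend, array weights, the number as a block, leaving out each array, and, added after seeing the data, the probe set near the gene's own chromosome.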

Additional observations from a re-analysis of the deposited data

Results flagged for a closer look

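For 26 of the 29 measured members the activated minus resting difference under the B labels departed from that under the T labels. The call was limma's interaction with an adjusted p under 0.05, which put 21.9% of all genes above 0 and 20.9% below 0. The interaction was 6.74 for Aldoc, 6.71 for Tpi1, 6.16 for Slc16a3, 5.87 for Hk2, 5.20 for Pgk1 and 5.12 for Pgam1, all on the log2 scale. It was 4.37 for Pkm, 3.84 for Slc16a1, 3.68 for Pfkl, 3.56 for Pfkp, 3.51 for Ldha and 3.50 for Aldoa. Next came 3.35 for Eno2, 2.96 for Slc2a1, 2.80 for Tkt, 2.16 for Pgd, 2.06 for Pfkm and 1.71 for Pdk1. Smaller ones were 0.98 for Slc2a3, 0.77 for Rpe, 0.70 for Pfkfb3, 0.67 for Pgls, 0.56 for Rpia and 0.51 for Eno3. The Eno3 call was lost in 4 alternatives and the Rpia call in 2, quantile normalization being among both. The sign was turned for Pfkfb4 (-0.64) and Hk3 (-0.73). For 18 of these genes the activated minus resting difference itself had opposite signs under the B and T labels, with a call in both comparisons. All were higher under the B labels and lower under the T labels, as were 12.9% of all genes. The opposite held for 9.89% of all genes. The arrays of both labels go against the lineage markers, as described above. Markers of dividing cells were high with the label resting T (9.44 to 9.55 log2) and low with activated T (5.68 to 6.35), the reverse of the B labels. The part of the labels and of cell division in these differences was not tested.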

How the results depend on the processing

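Over all alternatives, 416 of 433 repeats of the counts and ratios and 4213 of 4314 repeats of single members kept their direction and side of the threshold, and none changed sign against a call. With genes above the background only, the count of members called lower went from 1 to 0 for activated against resting B labels, from 2 to 1 for activated B against activated T, and from 2 to 1 for the interaction, since Hk3 was not tested. In a fit of the groups compared alone, 1 member in place of 3 was called higher with the label activated T than resting T, and with arrays centred on their median 3 in place of 5 were called lower with activated B than resting T. Over the fits without 1 array, the count of members lay between 1 and 3 for the higher calls of activated against resting T, between 1 and 2 for the lower calls of activated B against activated T, between 2 and 5 for the lower calls of activated B against resting T, and between 1 and 2 for the lower calls of the interaction. In the same order, the lowest count came without array 5 labelled resting T or array 4 labelled activated T, without array 2 labelled activated B or array 5 labelled activated T, without array 2 labelled activated B or array 4 labelled resting T, and without array 4 or 5 labelled activated T. The range of group means of Hk3 over Hk1 lay between 0.40 and 0.61 log2 (0.50 with all arrays). The causes were not tested. With the replicate block, 22 members were higher and 1 lower under the B labels and 3 higher and 20 lower under the T labels, and it changed no call. With the probe set near the gene's own chromosome, 23 and 1, and 4 and 21 were, 1 of the 4 being Ldhb, whose T arrays are then under the background. Centring on the 75th percentile moved the median of all genes from -0.02 to -0.12 log2 for activated against resting B labels, from -0.03 to -0.15 for activated B against activated T, and from -0.03 to -0.21 for the interaction, where 22 members stayed above 0 in place of 24 and the share of higher calls among all called genes went from 51.2% to 38.1%. Signal over background limits Hk3, Eno2, Ldhb, Aldoc, Egln3 and Slc16a7, and 12 arrays in all limit the rest.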
